A study of Mus musculus with 6 samples.

Results

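Antisense long noncoding RNAs are transcripts that are read from the strand opposite a protein-coding gene and have no long open reading frame of their own. In mouse gene naming, the suffix "os", for opposite strand, followed in some cases by a number, is added to the symbol of the gene on the other strand, here called the sense gene. The genes described here are those whose symbol ends in this suffix and whose RefSeq transcripts all carry the NR prefix of noncoding RNA, without Speer4cos. The rule gave 142 of the 24411 genes in the deposited tables. They correspond to 135 sense genes, since 7 sense genes have 2 antisense members each, and all 135 sense symbols were present in the tables. Another 32 genes with the suffix had at least 1 transcript without the noncoding prefix and were not included.

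The series compared whole testes of C57BL/6 mice that lack both MRP5 and MRP9 (genotype MRP5-/- and MRP9-/-, labelled DKO) with testes of age-matched mice of the same strain labelled Wildtype (WT). There were 3 libraries per genotype, and each came from a separate mouse as far as the design text states it. Total RNA was extracted from frozen tissue. MRP5 (gene symbol Abcc5) and MRP9 (Abcc12) are transporters of the ATP-binding cassette family. Neither the ages nor the construction of the alleles is given in the sources used here.

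Antisense transcription is widespread in mammalian genomes, and the testis transcribes more noncoding RNA than most other organs, particularly in meiotic and postmeiotic germ cells. An antisense RNA can share exon sequence with its sense gene, can start from the same open promoter in the opposite direction (a head-to-head pair), or can lie within an intron. Individual antisense RNAs have been described that silence, stabilise or leave unaffected the gene on the other strand. The question here was how abundant these RNAs were in testis, whether their levels differed between the genotypes, and whether the sense gene differed with them.

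The sequences below are shown because 3 members, Far1os, Kcnmb4os1 and Rab26os, passed the test between the genotypes, with the limits given below. Med9os is included because it was the most abundant member and has its start beside that of its sense gene. Positions are on GRCm38, the assembly also called mm10. Far1os is transcribed from the minus strand at chr7:113538026-113564987, inside Far1, which occupies chr7:113513834-113571511 on the plus strand. Their exons overlap over 80 bases at chr7:113540607-113540686, all of it coding sequence of Far1. This stretch is given 5′ to 3′ on the Far1os strand, from the GENCODE transcript.
Far1os exon overlap: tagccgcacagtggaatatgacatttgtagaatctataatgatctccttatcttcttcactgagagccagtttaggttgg
The start regions are from RefSeq (GRCm38.p6), from 250 bases before the annotated start to 50 bases after it, 5′ to 3′ on the gene's own strand. Capitals mark matches, on either strand, to 1 of 5 short promoter words: the cyclic AMP response element TGACGTCA, the MYB core CAGTTG, the SP1 box GGGCGG, the NF-Y box CCAAT and the TATA box core TATAAA. The start region of Far1os lies at chr7:113564938-113565237 (minus strand), has a GC content of 35.0% and holds 3 CpG dinucleotides.
Far1os start region: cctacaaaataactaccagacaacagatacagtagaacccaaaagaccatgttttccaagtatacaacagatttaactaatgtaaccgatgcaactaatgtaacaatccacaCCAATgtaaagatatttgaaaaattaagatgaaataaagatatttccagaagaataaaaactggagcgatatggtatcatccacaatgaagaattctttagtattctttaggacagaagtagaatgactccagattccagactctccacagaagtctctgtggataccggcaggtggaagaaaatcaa
The start region of Rab26os lies at chr17:24528001-24528300 (plus strand), with a GC content of 48.33% and 11 CpG dinucleotides.
Rab26os start region: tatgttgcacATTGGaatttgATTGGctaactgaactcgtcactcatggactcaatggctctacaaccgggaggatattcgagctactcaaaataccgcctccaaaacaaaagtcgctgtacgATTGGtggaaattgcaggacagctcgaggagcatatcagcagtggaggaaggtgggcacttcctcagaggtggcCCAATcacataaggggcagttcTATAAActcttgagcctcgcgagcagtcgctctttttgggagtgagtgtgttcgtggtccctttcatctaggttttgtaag
The windows of Med9os, chr11:59948098-59948397 (minus strand), and Med9, chr11:59947964-59948263 (plus strand), cover part of the same DNA and are rich in CpG, with 30 and 23 CpG dinucleotides.
Med9os start region: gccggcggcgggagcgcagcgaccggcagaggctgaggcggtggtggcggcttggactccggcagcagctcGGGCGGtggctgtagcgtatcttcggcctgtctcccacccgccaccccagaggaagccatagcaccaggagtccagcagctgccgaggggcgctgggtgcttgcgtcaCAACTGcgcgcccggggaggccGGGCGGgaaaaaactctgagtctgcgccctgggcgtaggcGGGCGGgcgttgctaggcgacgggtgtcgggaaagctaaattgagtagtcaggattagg
Med9 start region: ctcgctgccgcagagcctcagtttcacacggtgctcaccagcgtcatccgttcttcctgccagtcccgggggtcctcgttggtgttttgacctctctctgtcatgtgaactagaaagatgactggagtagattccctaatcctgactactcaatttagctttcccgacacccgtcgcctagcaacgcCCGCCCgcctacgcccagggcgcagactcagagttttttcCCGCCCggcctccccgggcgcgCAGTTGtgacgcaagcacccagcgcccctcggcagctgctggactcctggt
The Far1os window holds 1 CCAAT word and none of the others, the Rab26os window holds CCAAT words and a TATAAA word, and the Med9os and Med9 windows hold GGGCGG and CAGTTG words. A match is a description of the letters and not a site at which a factor was measured. Kcnmb4os1 has no entry in the promoter table used.

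The libraries held between 26753721 and 67131103 expected counts. The DKO libraries were deeper (42673615 to 67131103) than the WT libraries (26753721 to 31745969), and the mean fragment length read from the deposited lengths was 275.47 to 317.36 bases in DKO and 230.4 to 257.9 bases in WT, so neither range overlapped. Both differences run with genotype, and their part in the results below was not tested except through the length-adjusted values given beside them. Of the targeted genes, Abcc12 was lower in the libraries labelled DKO (log2 fold change -1.02, edgeR adjusted p = 0.000307) and Abcc5 was higher (0.56, adjusted p = 0.0225), at 17.0, 16.7 and 16.8 CPM (counts scaled to a fixed library total, by edgeR) in DKO and 10.5, 12.3 and 11.4 in WT. Whether these counts come from the deleted parts of the genes cannot be told from gene totals. The tissue label fitted its markers: the 6 spermatid markers summed to between 98805 and 116057 TPM (transcript abundance scaled to a fixed library total after correction for length) over the 6 libraries and the 4 epididymis markers to at most 0.18. Of the other cell type markers, 2 of 6 Leydig cell genes and 1 of 7 Sertoli cell genes were lower in DKO and 1 of 6 spermatocyte genes was higher, while none of the 6 spermatogonial, 6 spermatid, 4 macrophage or 2 peritubular genes passed the test. Over all tested genes, 5.75% were called higher and 5.1% lower. The 6 Leydig cell markers summed to between 812 and 1453 TPM in DKO and between 1430 and 3001 in WT. In whole tissue, fewer cells of a type and less RNA per cell cannot be told apart, and the part of cell composition in the differences below was not tested.

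Most antisense members were low in testis beside their sense partners, and a few were abundant. Levels are compared between genes in TPM. The median member had 0.963 TPM over the 6 libraries, against 5.39 TPM for the sense partners and 2.44 for all genes of the tables. The 3614 noncoding genes without the suffix were lower, with a median of 0.0208 TPM. Of these, 997 reached 1 TPM and 1572 had no counts. Among genes that passed the filter on low counts, the medians were 3.46 TPM for members and 4.89 for those other noncoding genes. Of the 142 members, 98 had counts in every library, 70 reached a mean of 1 TPM and 28 reached 10 TPM. At the other end, 21 members had 3 counts or fewer in the 6 libraries together, and 11 of these had none: Ctrcos, Has2os, Hnf4aos, Hoxa11os, Nphs1os, Otx2os1, Pcsk2os1, Ptf1aos, Ptprtos, Rab11fip4os1 and Six3os1. A count of 0 in a library allows up to 3 counts there, for counting error alone, so these RNAs were not detectable at this depth. Several of their sense genes are known for roles in other organs, such as pancreas, kidney or embryonic patterning. More members had an expected count above 0 in the DKO libraries (119, 120 and 126) than in the WT libraries (111, 115 and 111). The DKO libraries were also the deeper ones.

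The 10 most abundant members held 69.04% of all antisense TPM. Med9os led with 319, 296 and 318 TPM in DKO and 281, 245 and 274 in WT. Its sense gene Med9 encodes a subunit of Mediator, the complex that links transcription factors to RNA polymerase II, and had a mean of 43.9 TPM. Kcnmb4os1 followed with a mean of 216 TPM, and Hoxd3os1, antisense to a homeobox gene, had 185 TPM while Hoxd3 itself had 0.537. Frs3os had 151 TPM and Lyzl4os 111 TPM. Frs3 is an adaptor of fibroblast growth factor receptors, and Lyzl4 belongs to the lysozyme-like proteins of the male reproductive tract. The other five of these 10 were Slfn5os (88.2 TPM), Tmem132cos (83.1), Fam219aos (80.2), Saxo1os (76.7) and Dgkeos (60.0). Fam219aos, of 708 bases, shares exon stretches of 56 and 413 bases with Fam219a, and Slfn5os shares 77 coding bases with Slfn5. Neither member had fractional counts.

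**Figure D1:**
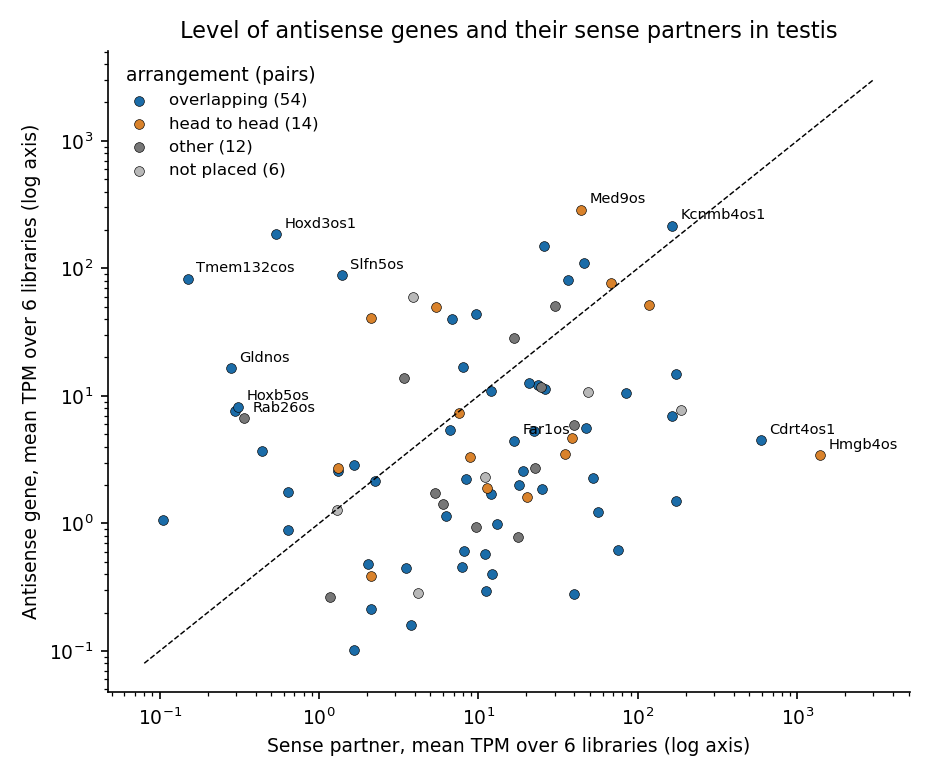
Mean TPM over the 6 libraries of each of the 86 tested antisense members against that of its sense gene, both on log axes, with points coloured by the arrangement of the pair and a dashed line where the levels are equal. The 29 points above the line, Med9os at 289 TPM the highest of them, are pairs in which the antisense RNA was the more abundant.

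The antisense RNA was the more abundant of the pair in 36 of 142 pairs, and in 29 of the 86 pairs whose antisense member passed the filter on low counts. The 5 largest antisense-to-sense TPM ratios among those 86 were 554 for Tmem132cos, 344 for Hoxd3os1, 63.6 for Slfn5os, 59.1 for Gldnos and 26.5 for Hoxb5os. In each of these, the sense gene was at or below 1.39 TPM, so the high ratios went with low sense levels. Gldn, known for assembling nodes of Ranvier in peripheral nerve, had 0.278 TPM and Gldnos 16.4. Hoxb5, a regulator of axial patterning, had 0.31 TPM and Hoxb5os 8.23. In the opposite direction, chosen after their values were seen, Hmgb4os had 3.43 TPM against 1394 for Hmgb4, a high-mobility-group protein of germ cells, and Hk1os had 0.35 TPM against 1269 for Hk1, a hexokinase. Asb17os had 1.03 TPM against 373 for Asb17. Across the 142 pairs Spearman's rank correlation between antisense and sense TPM was 0.49, and across the 86 it was 0.21. The points of a pair share their libraries, and in some pairs exon sequence.

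The positions of 132 members could be taken from GENCODE by their RefSeq accession, and all 132 lay on the strand opposite the sense gene. GENCODE lists 1 of them, Chd3os, as protein-coding, although its RefSeq transcripts carry the noncoding prefix. The gene spans overlapped in 94 pairs. In 43 of these the antisense gene lay inside the sense gene, in 35 the start ends overlapped, in 13 the far ends overlapped and in 3 the antisense gene surrounded the sense gene. Another 20 pairs were head to head without overlap, with starts within 1 kb, and 18 lay otherwise. The head-to-head members had the higher median level, 3.04 TPM, against 0.60 for overlapping members and 1.17 for the rest. These medians are a description without a test, and among tested members alone they were 4.10, 2.71 and 4.32 TPM, so that the head-to-head class was then not the highest. Saxo1os and Saxo1, which encodes a protein of the sperm and cilium axoneme, started 143 bases apart and had 76.7 and 67.5 TPM. Med9os and Med9 started 64 bases apart.

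Exons of the pair overlapped in 58 of the 132 placed pairs and did not in 74. The authors' counting tool assigns a fragment that matches both RNAs in fractions, and whether it used strand is not given in the sources used here. Without strand, reads of overlapping exons cannot be assigned to one RNA or the other. Where an antisense exon lies in a sense intron, reads of unspliced sense RNA would then count for the antisense gene. Such reads would leave whole counts, and their share was not tested. Frs3os and Frs3 had fractional counts in the same 3 libraries, and there the counts of the pair add to whole numbers (4365.84 and 2038.16 in DKO replicate 3). Fam219aos, which shares more exonic bases with its sense gene, had no fractional counts. How far reads were divided across strands was not tested. Counts that were not whole, by more than 0.005, occurred in at least 1 library for 11 of the 58 members with shared exons (18.97%) and for 1 of the 74 without (1.35%). Among the 16 members with such counts in all, 11 passed the filter, Kcnmb4os1 among them. The median level was 0.43 TPM for the members with shared exons and 1.66 TPM for those without.

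Between the genotypes, 1 antisense member was higher in DKO and 2 were lower, of 86 that passed the filter. Far1os was the higher one, and Kcnmb4os1 and Rab26os were the lower ones, by edgeR's quasi-likelihood test with adjusted p under 0.05 over all 17110 tested genes. The other 56 members were too low to test. Over all tested genes the shares were 5.75% higher and 5.1% lower, as above. Among the 1235 tested noncoding genes without the suffix 4.45% were called higher and 4.94% lower. Members' counts of 1 and 2 of 86 lie below these shares. The standard errors were larger for the members: the median SE of the log2 fold change was 0.188 for the 86 and 0.108 for all tested genes, with median mean counts of 74.6 and 534. At an unadjusted p under 0.05 there were 19 members (22.1%) and 5428 of all tested genes (31.7%). All 3 calls were lost in each of the fits without DKO replicate 1, WT replicate 2 or WT replicate 3, in which the calls over all genes fell from 984 higher and 872 lower to at most 2 higher and 16 lower.

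The DKO and WT values did not overlap for 7 members that were higher and 12 that were lower in DKO. Among all tested genes the groups were apart in 18.4% upward and 17.5% downward. The median log2 fold change of the 86 was -0.04, with quartiles of -0.23 and 0.19, and 40 were positive and 46 negative. For all tested genes the median was -0.0042 and for other noncoding genes -0.0066. The summed TPM of the 142 members was 1913, 1968 and 1890 in DKO and 2018, 1922 and 1927 in WT. The group means of 1924 ± 40.4 and 1955 ± 54.3 TPM (SD, n = 3 each) differed by less than the spread between libraries (exact permutation test, two-sided, p = 0.5, where 0.1 is the smallest p that 3 against 3 allows).

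**Figure D2:**
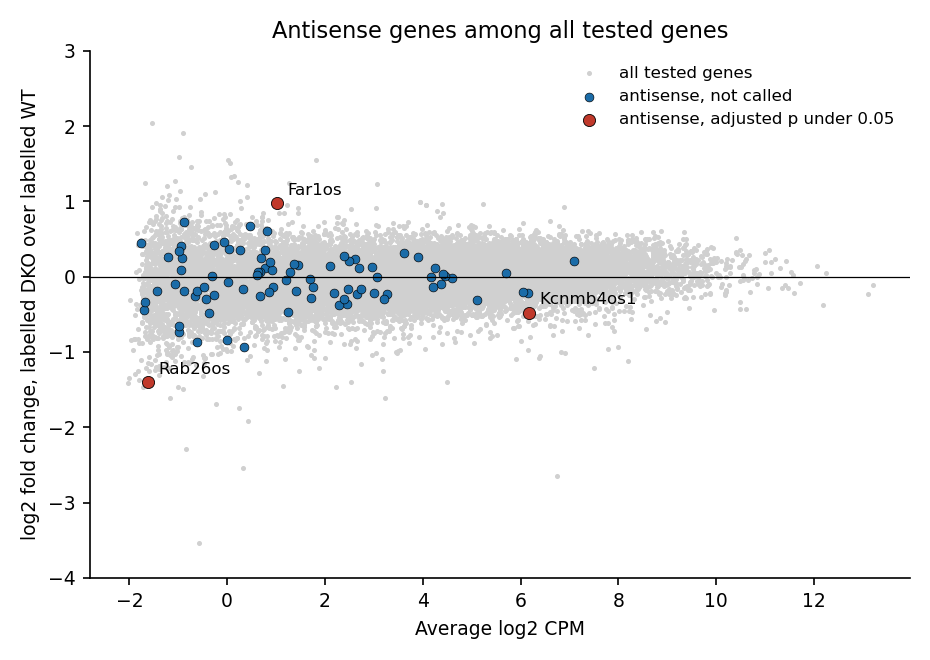
Log2 fold change (labelled DKO over labelled WT) against average log2 CPM, with all tested genes in grey, the tested antisense members in blue and the called ones in red with their names. Grey genes beyond the axis limits are not drawn. The members lie around 0, and Far1os at 0.98, Kcnmb4os1 at -0.48 and Rab26os at -1.40 are the ones past the threshold.

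Far1os was higher in the libraries labelled DKO. Its 893-base transcript had 2.28, 2.82 and 2.44 CPM in DKO and 1.21, 1.28 and 1.33 in WT, so every DKO library lay above every WT library. The means were 2.51 ± 0.275 and 1.27 ± 0.056 CPM (SD, n = 3 each), from raw counts of 95, 124 and 165 in DKO and 32, 43 and 41 in WT. On the log2 scale it was 0.98 higher (SE 0.171, edgeR adjusted p = 0.0236). None of its counts was fractional in any library. Only 80 of its bases are exonic in Far1, and its other exonic bases lie in Far1 introns. Reads of unspliced Far1 RNA there would give whole counts if strand was not used, and this was not tested.

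Its sense gene Far1 was also higher in DKO, and this was the only pair of which both genes passed the test. Far1 encodes fatty acyl-CoA reductase 1, which supplies the fatty alcohols used to make ether lipids in peroxisomes, and ether lipids are needed for spermatogenesis. Far1 had 57.1, 50.7 and 49.9 CPM in DKO and 42.7, 38.3 and 40.0 in WT, which is a log2 difference of 0.38 (SE 0.0795) at an edgeR adjusted p of 0.0269. Per length, Far1os had 0.267 times the TPM of Far1. The log2 antisense-to-sense ratio, taken per effective length with 0.5 counts added, was -1.84, -1.42 and -1.63 in DKO and -2.43, -2.25 and -2.24 in WT. These ratios did not overlap, and the difference was 0.68. The two-sided exact permutation p was 0.1, as low as 3 against 3 can give. Pairs without antisense counts also reached it, such as Hoxa11os with a ratio difference of 0.01 and Ptprtos with -0.79. A p of 0.1 therefore does not set a pair apart, here or for the ratios below.

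With the counts of Far1os and Far1 added, an alternative chosen after seeing the data, the locus was higher by 0.41 (edgeR adjusted p = 0.025), and with each gene's effective length as an offset Far1os was at 1.05 (adjusted p = 0.0267). The Far1os call was lost without DKO replicate 1 (adjusted p = 0.0977), WT replicate 2 (0.0633) or WT replicate 3 (0.0946), with fold changes of 0.88 to 1.02 over all left-out libraries, and with mean fragment length as a covariate (1.13, adjusted p = 0.999). Far1 was at 0.13 with that covariate, and did not pass limma's test on log2(TPM + 1) (0.30) or without each of DKO replicate 1, WT replicate 2 and WT replicate 3 (adjusted p of up to 0.104).

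Kcnmb4os1 was lower in DKO. This 753-base RNA lies at chr10:116418052-116421237 on the plus strand inside Kcnmb4 (chr10:116417861-116473878, minus strand), which encodes a regulatory beta subunit of the large-conductance calcium-activated potassium channel. It had 55.4, 73.2 and 51.4 CPM in DKO and 85.3, 81.0 and 84.7 in WT. All DKO libraries were below all WT libraries, but the DKO libraries were spread more widely (60.0 ± 11.6 against 83.7 ± 2.31, SD, n = 3 each). The log2 fold change was -0.48 (SE 0.114, edgeR adjusted p = 0.0337). Kcnmb4 itself did not pass the test: it had 76.8, 86.3 and 84.5 CPM in DKO and 83.9, 81.3 and 84.2 in WT (log2 fold change -0.01, adjusted p = 0.938). The RNAs had similar levels per length, with means of 216 TPM for Kcnmb4os1 and 165 for Kcnmb4.

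Kcnmb4os1 and Kcnmb4 share 355 exonic bases, of which 166 are coding in Kcnmb4, and both had fractional counts in 6 of 6 libraries. Their counts add to a whole number in DKO replicate 1 (2308.38 and 3197.62) but not in DKO replicate 2 (3223.42 and 3800.12). A division of reads between these genes alone thus does not account for all the fractions. The values of both genes are uncertain to at least the extent of the divided reads. The log2 antisense-to-sense ratio was 0.19, 0.39 and -0.11 in DKO and 0.61, 0.56 and 0.59 in WT (difference -0.43, exact permutation test, two-sided, p = 0.1). A second antisense member of the locus, Kcnmb4os2, had 6.96 TPM and differed by -0.22 on the log2 scale (SE 0.119, edgeR adjusted p = 0.219), and it shares no exon with Kcnmb4os1. When the 3 genes were summed, the locus had 138, 166 and 141 CPM in DKO and 176, 169 and 176 in WT, and did not pass the test (-0.23, adjusted p = 0.0866). The Kcnmb4os1 call was also lost with the effective-length offset (-0.37, adjusted p = 0.0583) and without DKO replicate 1, WT replicate 2 or WT replicate 3, with fold changes of -0.66 to -0.38 and adjusted p of up to 0.131 over the left-out libraries.

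Rab26os had the largest decrease among the tested members. Its 295-base transcript had 0.144, 0.159 and 0.192 CPM in DKO and 0.341, 0.537 and 0.452 in WT. The groups did not overlap, but these values rest on 6, 7 and 13 counts in DKO and 9, 18 and 14 in WT. The log2 fold change was -1.40 (SE 0.349, edgeR adjusted p = 0.036). Rab26os lies at chr17:24528248-24528744 on the plus strand, beyond the far end of Rab26 (chr17:24529054-24533888, minus strand), and the genes do not overlap. Rab26 encodes a small GTPase of vesicle traffic and was itself near the limit of the counts, with 0.336, 0.227 and 0.104 CPM in DKO and 0.379, 0.537 and 0.0323 in WT (log2 fold change -0.61, SE 0.651, adjusted p = 0.555).

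Rab26os is about as short as the fragments that were sequenced. Its effective length, the number of positions at which a fragment fits, was 44.25, 58.15 and 49.87 bases in DKO and 71.81, 83.17 and 77.32 bases in WT. With that length as an offset the log2 fold change was -0.82 (edgeR adjusted p = 0.131), and with fragment length as a covariate it was -0.71 (adjusted p = 0.999). With all libraries thinned to the depth of the smallest it was -1.43 (adjusted p = 0.0604), and DESeq2 gave no adjusted p. The call was also lost without DKO replicate 1, DKO replicate 2, WT replicate 2 or WT replicate 3 (adjusted p of up to 0.136).

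**Figure D3:**
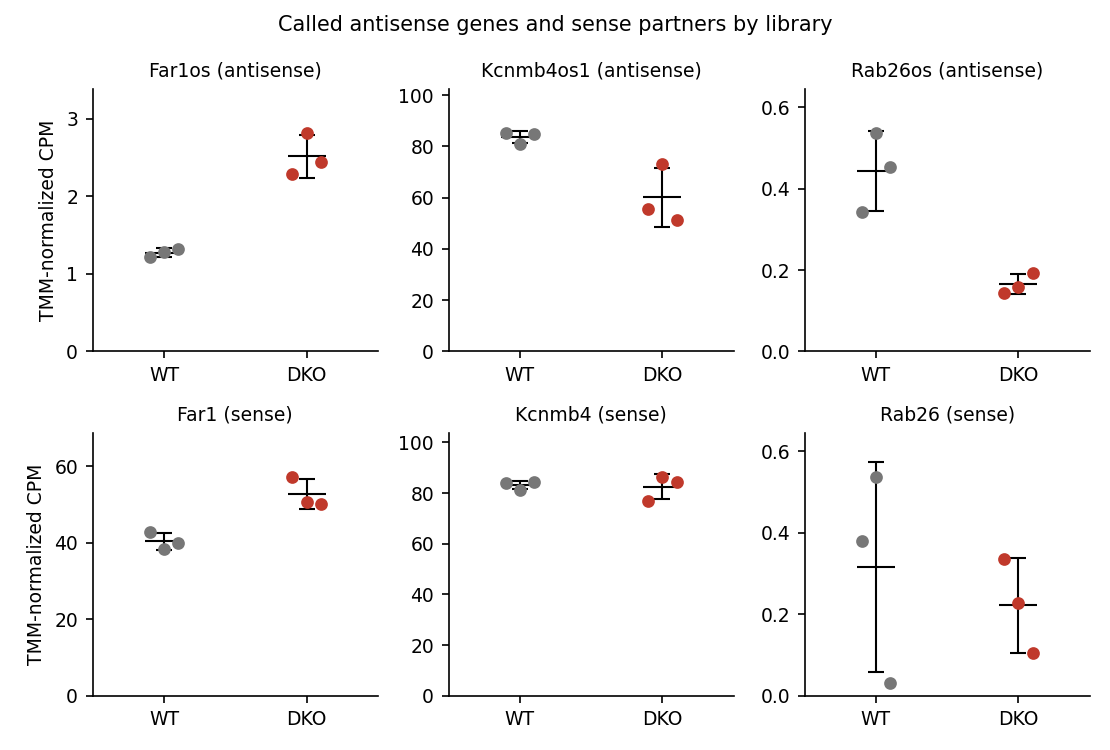
TMM-normalised CPM per library of the 3 called antisense members (upper row) and of their sense genes (lower row), with a point for each library and lines for the group mean ± SD (n = 3 each), every panel on its own axis from 0. The DKO and WT points are apart for Far1os, Far1, Kcnmb4os1 and Rab26os, and overlap for Kcnmb4 and Rab26.

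Among the members that did not pass the test, 5 had the largest fold changes. Rab11fip4os2, antisense to an effector of Rab11 in endosome recycling, had 0.769, 1.39 and 0.592 CPM in DKO and 2.20, 1.16 and 1.81 in WT (log2 fold change -0.93, SE 0.327, edgeR adjusted p = 0.0801), and the groups overlapped. Toporsos had 0.432, 0.568 and 0.385 CPM in DKO and 0.645, 0.836 and 1.002 in WT (-0.87, SE 0.278, adjusted p = 0.0625), without overlap. Topors, a ubiquitin and SUMO ligase, was at 0.28 (adjusted p = 0.0601). Like Rab26os, both of these RNAs are short, at 357 and 325 bases. With the effective-length offset Rab11fip4os2 was at -0.51 (adjusted p = 0.307) and Toporsos at -0.37 (adjusted p = 0.374). Rab11fip4os2 passed without DKO replicate 2 and Toporsos without WT replicate 1. Topors passed with DESeq2, without a filter on low counts and without DKO replicate 3.

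Sp3os is longer, at 1147 bases, and overlaps the start end of Sp3, a transcription factor that binds GC-rich boxes, with 109 shared coding bases. It had 0.865, 0.932 and 0.429 CPM in DKO and 1.21, 1.25 and 1.39 in WT (log2 fold change -0.84, SE 0.289, edgeR adjusted p = 0.0758), while Sp3 was at 0.30 (adjusted p = 0.102). The signs of the pair were opposite, and the antisense-to-sense ratio differed by -1.10 on the log2 scale with no overlap (exact permutation test, two-sided, p = 0.1). Arhgap20os was at 0.73 (SE 0.357, adjusted p = 0.183), and its sense gene Arhgap20, with which it shares 162 coding bases, was called higher at 0.41 (adjusted p = 0.0358). The Arhgap20 call was lost with limma on log2(TPM + 1) (adjusted p = 0.0819) or log2(TPM + 0.1) (0.0745). It was also lost with the fragment-length covariate (log2 fold change 0.0015) and without DKO replicate 1, DKO replicate 2, WT replicate 2 or WT replicate 3. Igf2os was at -0.73 (SE 0.343, adjusted p = 0.169), and the growth factor gene Igf2, with which it shares 98 exonic bases, was at -0.37 (adjusted p = 0.0503). Igf2 passed with DESeq2, under either other filter, with the effective-length offset, in thinned libraries and without WT replicate 1. Single libraries moved these values by over 1.5 times: Sp3os was at -0.52 without DKO replicate 3, Sp3 at 0.16 without DKO replicate 1, Arhgap20os at 0.44 without WT replicate 3 and Igf2os at -0.46 without WT replicate 3. Sp3 passed without DKO replicate 3.

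None of the abundant members other than Kcnmb4os1 passed the test. Lyzl4os came closest, at 28.1, 34.1 and 30.7 CPM in DKO and 42.0, 37.4 and 35.8 in WT, with no overlap (log2 fold change -0.31, SE 0.0919, edgeR adjusted p = 0.0518), and it passed with DESeq2's size factors or test, with no filter on low counts and with the stricter filter, while with the effective-length offset it was at -0.20 (adjusted p = 0.167). Lyzl4, within which it lies without shared exons, was at -0.09. Hoxd3os1 had 56.0, 68.6 and 60.6 CPM in DKO and 69.7, 71.7 and 71.3 in WT (-0.20, adjusted p = 0.119), and Frs3os was at -0.22 (adjusted p = 0.0941). With the effective-length offset they were at -0.11 (adjusted p = 0.376) and -0.16 (adjusted p = 0.21). Both groups of libraries were apart for these RNAs too, with DKO the lower, and Frs3os shares 162 coding bases with Frs3. Med9os was level between the genotypes in CPM, with 50.4, 53.6 and 54.5 in DKO and 54.1, 46.7 and 52.5 in WT (0.05, SE 0.0775, adjusted p = 0.696). In the deposited TPM, which divide by an effective length that was shorter in DKO, the Med9os groups did not overlap. With the effective-length offset Med9os was at 0.26 (edgeR adjusted p = 0.0642).
The log2 fold changes of the other five were -0.14 for Slfn5os (adjusted p = 0.472), 0.04 for Tmem132cos (0.84), -0.01 for Fam219aos (0.927), 0.11 for Saxo1os (0.47) and -0.10 for Dgkeos (0.452). In the same order, they were at 0.05, 0.23, 0.11, 0.26 and -0.00018 with the effective-length offset. None of them passed with it, and the lowest edgeR adjusted p was 0.126, for Saxo1os. Gldnos was at 0.12 and Hoxb5os at -0.21 (adjusted p = 0.491 for each).

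The sense partners as a set had 10 genes higher and 4 lower in DKO among 119 tested, which is 11.8% called against 10.8% of all tested genes. Their median log2 fold change was 0.00011. The 23 higher and 14 lower sense genes whose groups were apart compare with the shares of 18.4% and 17.5% given above. Their counts were also set by single libraries: without DKO replicate 1, DKO replicate 2, WT replicate 2 or WT replicate 3 at most 1 sense gene was called in either direction, and without DKO replicate 3 there were 21 higher and 6 lower. Except for Far1 and Arhgap20, the called sense genes named here were listed after their values were seen. Among these, the largest increase was that of Zfp85, a zinc finger gene, with 3.48, 2.95 and 2.32 CPM in DKO and 1.59, 1.31 and 1.58 in WT (log2 fold change 0.96, SE 0.195, edgeR adjusted p = 0.0263). Zfp85os was at 0.27 (SE 0.181, adjusted p = 0.324). The germ cell genes Rbm46 (0.50, adjusted p = 0.034), which encodes an RNA-binding protein needed for meiosis, Hmgb4 (0.39, 0.0353) and Asb17 (0.42, 0.0271) rose as well.
The other five that rose were Cep83, which encodes a protein of the centriole's distal appendages (0.42, adjusted p = 0.044), Cdrt4 (0.35, 0.0336), Grip1 (0.34, 0.0388), Mkln1 (0.28, 0.0499) and Arhgap20. The Mkln1 call was lost with DESeq2's size factors (edgeR adjusted p = 0.0512), the effective-length offset (0.0575) and thinned libraries (0.0558). It was also lost with either limma fit, with the fragment-length covariate and without any single library other than DKO replicate 3.

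Among the sense genes that passed the test, the largest decrease was that of Pla2g10, a secreted phospholipase, with 27.7, 32.4 and 31.7 CPM in DKO and 49.5, 47.7 and 45.7 in WT (log2 fold change -0.64, SE 0.081, edgeR adjusted p = 0.0116). Its antisense partner Pla2g10os had 0.0483 TPM and was not tested. Atad3a, a protein of the mitochondrial inner membrane, fell by 0.44 on the log2 scale (adjusted p = 0.0307), the uridine kinase-like Uckl1 by 0.39 (0.0394) and the tyrosine kinase Tnk2 by 0.31 (0.0494). Atad3aos, head to head with Atad3a at a distance of 99 bases, was at 0.01 (SE 0.271, adjusted p = 0.986). Tnk2os was at -0.49 (adjusted p = 0.204) and Uckl1os at 0.16 (adjusted p = 0.507).

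The directions of antisense and sense genes were spread over all combinations. Of the 86 pairs in which both were tested, the log2 fold changes were both positive in 20 and both negative in 20. The antisense gene was positive and the sense gene negative in 20, and the reverse held in 26. Spearman's rank correlation of the fold changes over the 86 pairs was 0.15, over the 54 overlapping pairs 0.17 and over the 14 head-to-head pairs 0.20. These are descriptions over pairs that share the same 6 libraries. The median log2 fold change of the antisense member was -0.04 in the overlapping pairs, 0.03 in the head-to-head pairs and -0.14 in the rest.

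**Figure D4:**
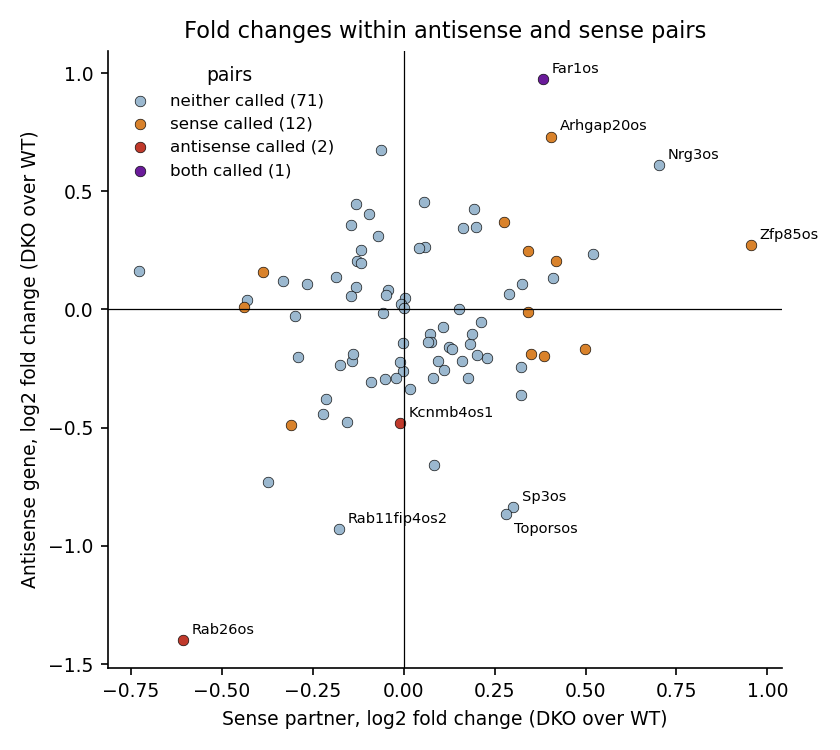
Log2 fold change (DKO over WT) of the antisense member against that of its sense gene for the 86 pairs in which both were tested, coloured by which gene of the pair passed the test. The points spread over all quadrants, and Far1os with Far1 is the pair in which both genes passed.

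Short members were more often lower in DKO and long members more often higher, and the fragment lengths differed between the genotypes as given above. Of the 13 tested members under 600 bases, 3 had a positive and 10 a negative log2 fold change (median -0.21). Of the 44 members of 600 to 1500 bases, 15 were positive and 29 negative (median -0.14), and of the 29 over 1500 bases, 22 were positive and 7 negative (median 0.16). All tested genes showed the same order, with medians of -0.25, -0.09 and 0.02. Of all tested genes over 1500 bases, 7021 were positive and 6287 negative. With effective length as an offset, which corrects each gene for the fragments that fit on it, the member medians became 0.02, -0.05 and 0.16. Those of all tested genes became -0.008, -0.031 and 0.003. The median of the members over 1500 bases thus stayed at 0.16. Spearman's rank correlation between length and fold change over the 86 members was 0.33 without the offset and 0.10 with it. Over all tested genes it was 0.21 and 0.0816. The median transcript length was 1099.5 bases for the tested members and 2623 for all tested genes.

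**Figure D5:**
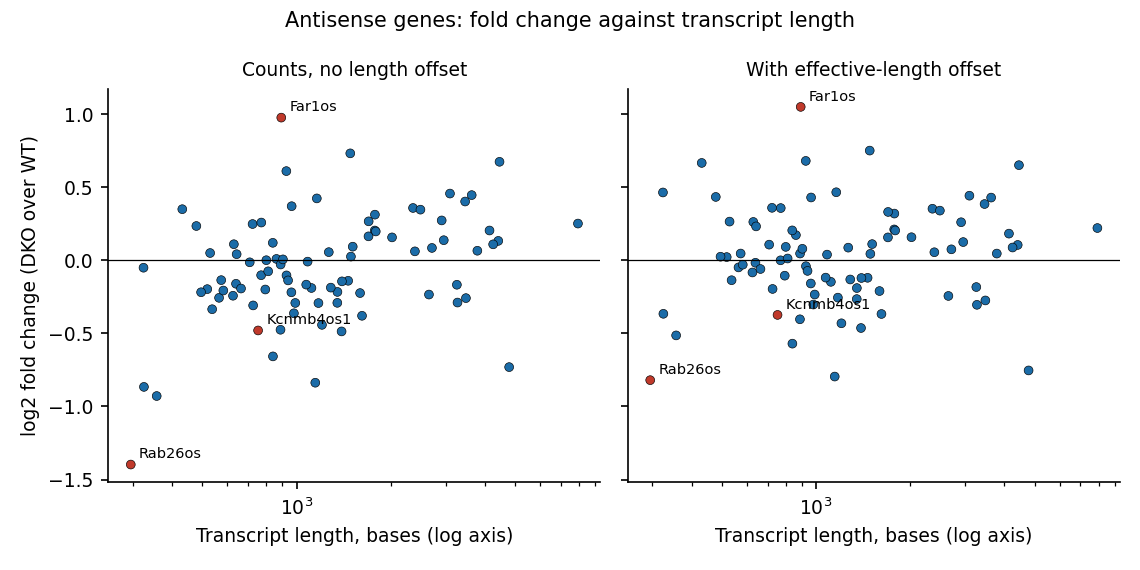
Log2 fold change (DKO over WT) of the 86 tested antisense members against transcript length on a log axis, from the counts alone and with effective length as an offset. The members under 600 bases move from a median of -0.21 to 0.02 with the offset.

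Antisense members of developmental regulators (homeobox, forkhead, Sox and related transcription factors) were mostly near 0 in testis, and Hoxd3os1 and Sox5os3 had the highest levels of them. The list holds 22 antisense members, whose median was 0.08 TPM, and 21 sense genes, whose median was 0.537 TPM. Hoxd3os1 (185 TPM), Sox5os3 (50.6), Hoxb5os (8.23), Vax2os (2.56) and Wt1os (1.60) were the 5 that reached 1 TPM. Sox5, a transcription factor with a testis form, had 29.99 TPM, and Wt1, a factor of Sertoli cells, had 20.2. Of the 8 antisense and 14 sense genes that could be tested, none passed edgeR's test, 1 of each had an unadjusted p under 0.05, and DESeq2 called none. Over all 17110 tested genes, edgeR called 10.8%, 31.7% had an unadjusted p under 0.05 and DESeq2 called 2943. The median log2 fold changes were -0.09 and 0.04, beside -0.0042 for all tested genes. Wt1os was at -0.29 (adjusted p = 0.23) and Sox5os3 at 0.01 (adjusted p = 0.975).

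The remaining lists give the setting of the members among other noncoding RNAs and the enzymes of double-stranded RNA. Of the 17 antisense or overlapping noncoding RNAs without the suffix that were in the tables (such as Kcnq1ot1, Airn and Nespas, which lie in imprinted regions), 9 could be tested. None passed edgeR's test, DESeq2 called none, and the median log2 fold change was 0.23. An unadjusted p under 0.05 was reached by 3 of them (33.3%), beside 31.7% of all tested genes. Of 18 tested widely expressed long noncoding RNAs, Tug1 (0.46, edgeR adjusted p = 0.0345) and the snoRNA host gene Snhg3 (0.53, 0.0307) rose and Snhg8 (-0.87, 0.0299) fell, and the median was -0.25. These 3 calls are 16.7% of the list, beside 10.8% called over all tested genes, and all 3 were lost without DKO replicate 1, WT replicate 2 or WT replicate 3. Sense and antisense RNA can pair, and Dicer, the Argonaute proteins and the ADAR family act on such duplexes. Of 20 genes of this list, all tested, only Adad2 was called, lower at -0.31 (adjusted p = 0.0395), and without any single library other than DKO replicate 3 it did not pass. Adad2 belongs to the ADAR-related proteins of male germ cells. The 1 edgeR call is 5% of the list, beside 10.8% over all tested genes. DESeq2 called 2 of the 20, beside 2943 of all 17110 tested genes. Dicer1 was at -0.02, Adar at -0.20 (adjusted p = 0.196) and Eif2ak2, the kinase that senses double-stranded RNA, at 0.36 (adjusted p = 0.0508). In 8 of the 20 the groups were apart upward and in 3 downward, beside the 18.4% and 17.5% of all tested genes.

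RefSeq gave 118 start regions for 112 of the 142 members, 154 for their sense genes and 32851 in all. TGACGTCA, the cyclic AMP response element, was found on either strand in 1.69% of the antisense regions, 3.25% of the sense regions and 1.79% of all regions. CAGTTG, the core of the MYB word, was found in 18.6%, 7.79% and 13.6%. GGGCGG, the SP1 box, was found in 33.1%, 52.6% and 35.7%, CCAAT in 39.0%, 39.6% and 37.4%, and TATAAA in 9.32%, 7.14% and 13.6%. None of the searched words is contained in another. The median GC content was 54.0% in antisense regions, 59.8% in sense regions and 52.7% in all, and the median number of CpG dinucleotides was 8, 19 and 7. By these medians, sense starts were richer in GC and CpG than those of their antisense partners, which lay near the values of all genes. No measurement in the series bears on binding at these sites.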

How the data were processed

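RNA from 6 testes was sequenced on the Illumina platform, 3 libraries labelled DKO and 3 labelled Wildtype. The submitters' processing notes name STAR 2.7.0f, RSEM 1.2.31, DESeq2 1.12.3 and the build mm10. Strand handling is not given in the sources used here. The authors deposited, per the file headers, RSEM gene tables with expected counts, which are estimates that need not be whole, and with TPM, which correct for effective length and library total. The deposited effective lengths gave each library's mean fragment length.

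Expected counts were rounded and tested with edgeR 4.0.16 (filterByExpr, TMM scaling, quasi-likelihood test, Benjamini-Hochberg adjustment over all 17110 tested genes, threshold 0.05) in R 4.3.3. The biological coefficient of variation was 9.34%. CPM are TMM-scaled. The test was tried on simulated data first. Replicate numbers follow accession order and pair nothing. The edgeR p-values set each difference against the spread between 3 libraries per group, with each gene's spread estimate drawn towards those of the other tested genes. Depth and fragment length run with genotype, so the p-values do not separate genotype from them. Alternatives used DESeq2 1.42.0, limma 3.58.1 on log2(TPM + 1) and log2(TPM + 0.1), effective-length offsets, a fragment-length covariate, thinning, other filters and left-out libraries; summing the counts of a locus was added after the data were seen.

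Members were placed on GRCm38 by RefSeq accession in GENCODE, and 10 of 142 were not placed. RefSeq lists 136 of the members as lncRNA, 4 as antisense RNA and 1 as a transcribed pseudogene. RefSeq now calls Chd3os Rnf227, Epb4.1l4aos Epb41l4aos and Ppp1r3fos Flicr, and Toporsos matched no entry. GENCODE types Chd3os as protein-coding, and the rule by RefSeq accession kept it.

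The members and gene lists were chosen with earlier results of these data known. Named by rule were Far1os and Far1, the called members, the 10 members with the highest mean TPM, the 5 with the highest antisense-to-sense ratio and the 5 uncalled ones with the largest fold change among those tested, their sense genes, the targeted genes and every called gene of a list.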

Additional observations from a re-analysis of the deposited data

How the results depend on the processing

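No paired analysis was possible because the labels give animal numbers that differ between the genotypes and no other pairing. The direction of Far1os, Kcnmb4os1 and Rab26os was the same under every alternative that gave a value. Against 1 antisense member called higher and 2 lower, DESeq2 called 2 higher, limma on log2(TPM + 0.1) 2 higher, the effective-length offset 0 lower, thinned libraries 1 lower, and both the fragment length covariate and a threshold of 0.01 called 0 higher and 0 lower. Against 10 sense partners higher and 4 lower, DESeq2 called 17 and 7, limma 4 and 2 with either pseudocount, and the covariate and the threshold of 0.01 0 and 0. Against 984 and 872 of all tested genes, DESeq2 called 1645 higher and 1298 lower, limma 279 and 456 on log2(TPM + 1) and 370 and 577 on log2(TPM + 0.1), the covariate 0 and 1, and the threshold of 0.01 0 and 7. With 1 library left out, the antisense calls ranged from 0 to 3 higher and 0 to 3 lower, the sense calls from 0 to 21 and 0 to 6, and the calls over all genes from 0 to 1904 and 7 to 1135. The highest counts came without DKO replicate 3 or WT replicate 1.

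The sign of the log2 fold change turned with the fragment length covariate for 20 of 56 named genes, and the cause was not tested: Slfn5os 0.12, Tmem132cos -0.18, Fam219aos 0.0065, Saxo1os -0.0663, Dgkeos 0.0942, Gldnos -0.0234, Kcnmb4 0.0927, Hoxd3 0.39, Lyzl4 0.0045, Slfn5 -0.18, Saxo1 -0.16, Dgke -0.0760, Hoxb5 -0.0054, Topors -0.0247, Sp3 -0.22, Tug1 -0.0564, Cep83 -0.11, Grip1 -0.0025, Rbm46 -0.0320 and Tnk2 0.0098. The fragment lengths of the groups do not overlap, so in that fit the covariate and genotype cannot be told apart. With the effective-length offset, Slfn5os was at 0.0462, Fam219aos 0.11, Kcnmb4 0.0462 and Med9 -0.0104. With limma on log2(TPM + 1), Fam219aos was at 0.0624, Med9 -0.0583 and Slfn5 -0.0084, and on log2(TPM + 0.1) Fam219aos was at 0.0631, Med9 -0.0596, Slfn5 -0.0181 and Dgke -0.00026. Med9 was at -0.00095 with DESeq2's size factors, -0.0057 with the stricter filter and -0.00077 with DESeq2, and Tmem132c was at 0.22 in thinned libraries. All of these genes were uncalled except Tug1, Cep83, Grip1, Rbm46 and Tnk2. With 1 library left out, sign changes occurred within the ranges -0.0202 to 0.0758 for Med9os, -0.0600 to 0.16 for Tmem132cos, -0.0697 to 0.0096 for Fam219aos, -0.0526 to 0.0246 for Kcnmb4, -1.15 to 0.0890 for Rab26, -0.0492 to 0.0483 for Med9, -0.0301 to 0.17 for Slfn5 and -0.0793 to 0.50 for Hoxb5. The Rab26os to Rab26 ratio differed by 0.36 without WT replicate 3, against -0.75 with all libraries. DESeq2 gave no adjusted p for Rab26os. Depth limits the 56 members that were too low to test.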
